A study of Mus musculus with 9 samples.

Results

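The Notch genes described here are 10 rows of the deposited expression tables, chosen by gene symbol with earlier results of these data known. They comprise the receptors Notch1, Notch2 and Notch3, the ligands Jag1, Jag2 and Dll4, and the transcriptional targets Hes1, Hey1, Hey2 and Heyl. All 10 were found, among 52025 genes in the tables. The libraries came from juvenile Kunming mice, an outbred stock, on postnatal day (PD) 14, 15 or 16, the days in which the study places the first appearance of follicular antra (iFFA, for initial follicular antrum formation). There were 3 libraries for each day, and the labels name no treatment or transgene for any of them. The study asked which transcripts change in the ovary as antra first appear. The methods describe whole ovaries lysed for RNA, whereas the labels name granulosa cells as the source and ovary as the tissue.

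Notch receptors are transmembrane proteins that bind Jagged or Delta-like ligands on a neighbouring cell. Binding exposes the receptor to cleavage by ADAM proteases and then by gamma-secretase, and the released intracellular domain enters the nucleus, joins the DNA-binding protein RBPJ and turns on genes of the Hes and Hey family, which encode basic helix-loop-helix repressors. In the ovary the pathway is known for signalling between oocytes and granulosa cells during follicle assembly and growth, and for the vessels of the theca layer, where Dll4 marks sprouting endothelium and Notch3 and Heyl mark mural cells.

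The libraries held RNA of all these cell types. Of the 12 oocyte markers none was at 0 in every library, and their summed level was 1123 to 1378 FPKM (mapped fragments scaled by exon length and library depth) at PD14, 1446 to 1527 at PD15 and 1048 to 1132 at PD16. The zona pellucida gene Zp3, an oocyte transcript, lay between 263 and 416 FPKM, and the theca enzyme gene Cyp17a1 between 19.9 and 46.5 FPKM. The levels below are therefore levels in the ovary, and fewer cells of a type cannot be told apart from less RNA per cell. The depth derived from the tables was 20.3 to 28.7 M fragments per library.

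Hey2 was the member that differed between the days by the test across all genes. Its mean level was 1.42 times as high at PD15 as at PD14, and 1.44 times as high at PD16. The receptors, the ligands and the other targets did not pass the test in any comparison. Thus 1 of 10 members rose by PD15 and none fell, where 0.336% of the 15495 genes tested rose and 0.342% fell, 0.678% in either direction, and 3 of 10 had an unadjusted p under 0.05, where 14.7% of all genes did. By PD16, 1 of 10 rose and none fell against PD14, where 2.36% of all genes rose and 1.89% fell, 4.25% in either direction, and 5 of 10 had an unadjusted p under 0.05, where 22.8% of all genes did. Between PD15 and PD16, 0 of 10 members passed the adjusted test in limma and 2 had an unadjusted p under 0.05, where 0.729% (0.432% higher, 0.297% lower) and 14.1% of all genes did so.

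**Figure D1:**
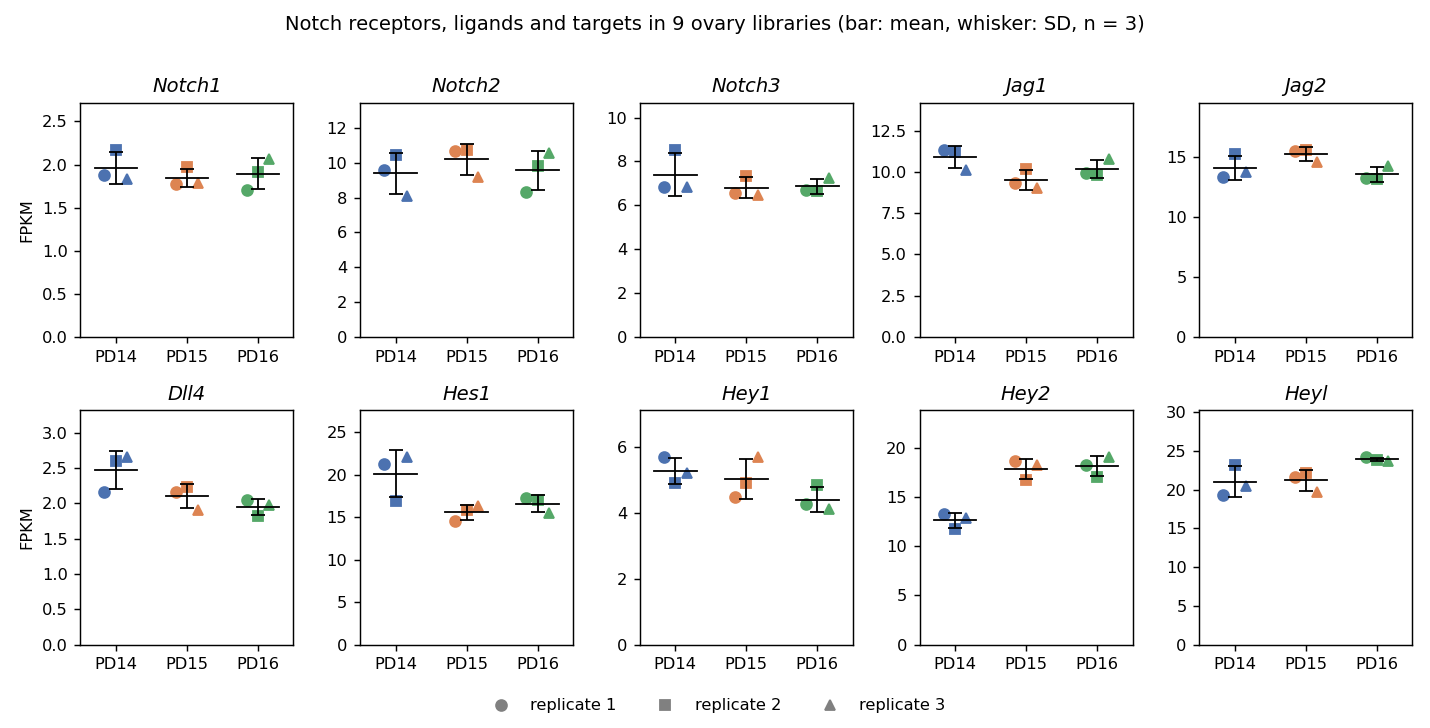
Level of each member in FPKM (vertical axes from 0, with a scale of their own) in the 9 libraries by postnatal day, with symbols for the replicate number, a bar for the mean and whiskers for the SD of 3 libraries. The 3 PD14 libraries of Hey2, at 11.7 to 13.3 FPKM, lie below the 6 later ones at 16.7 to 19.0 FPKM, whereas Notch1, Notch2 and Notch3 overlap between all days.

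The targets are described first, since they are the transcripts that an active receptor is known to induce. Hey2 encodes a repressor of the Hey subfamily that is known from heart and vessel development and from granulosa cells. In the PD14 libraries its level was 13.3, 11.7 and 12.8 FPKM, in the PD15 libraries 18.6, 16.7 and 18.3 FPKM, and in the PD16 libraries 18.3, 17.0 and 19.0 FPKM. All 6 later libraries lay above the 3 PD14 libraries, and the PD15 and PD16 ranges overlapped. The means were 12.6 ± 0.797, 17.9 ± 1.04 and 18.1 ± 1.01 FPKM (SD, n = 3 libraries each).

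On the log2(FPKM + 1) scale, Hey2 rose by 0.47 (SE 0.0681, 95% interval 0.32 to 0.62, limma adjusted p = 0.0310) at PD15 and by 0.49 (95% interval 0.34 to 0.64, limma adjusted p = 0.0106) at PD16, both against PD14. Between PD15 and PD16 the difference was 0.02 with an interval of -0.13 to 0.17 (limma adjusted p = 0.939). The limma test over the 3 days gave an adjusted p of 0.0163, which 3.03% of all genes passed (22.3% without adjustment), and an exact permutation test over the 280 groupings of the libraries gave p = 0.0214, where the smallest p these groupings allow is 0.00357. The rise at PD16 passed the test under every alternative that was run and with each library left out, with limma adjusted p between 0.00675 and 0.0478. The rise at PD15 was less firm. It missed the threshold without PD14 replicate 2 (0.0704), PD14 replicate 3 (0.0861), PD15 replicate 1 (0.120), PD15 replicate 2 (0.0570) or PD15 replicate 3 (0.0627), as limma adjusted p, although the estimate stayed between 0.42 and 0.52. Without PD14 replicate 3, Hey2 also missed the threshold in the limma test over the 3 days.

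The promoter of Hey2 was read because its transcript was the member that moved and because RBPJ, the nuclear partner of the receptors, is known to bind the letters GTGGGAA. The gene lies on the minus strand of chromosome 10, at 30832359 to 30842801 in GRCm38 (mm10), with 4 merged exon blocks of 4593 bases in GENCODE M21. The RefSeq promoter table for GRCm38.p6 gives 300 bases for each start site, 250 before the start and 50 from it on. The stretch printed here is chr10:30842774-30843033 on the minus strand, written 5′ to 3′ in the direction of transcription, with the 250 bases before the RefSeq start and the 10 bases from it on, and with capitals for GTGGGAA or its reverse complement TTCCCAC.
Hey2: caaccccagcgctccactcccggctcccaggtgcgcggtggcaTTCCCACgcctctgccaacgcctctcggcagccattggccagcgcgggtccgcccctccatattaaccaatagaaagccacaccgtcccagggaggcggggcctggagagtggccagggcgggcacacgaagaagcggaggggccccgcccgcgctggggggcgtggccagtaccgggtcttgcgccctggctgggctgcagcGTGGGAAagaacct

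The window held 2 matches. The distal match, on the opposite strand, spanned bases -207 to -201 from the RefSeq start, and the proximal match, in the direction of transcription, spanned bases -4 to 3, counting the start as base 1. In GENCODE M21 the protein-coding Hey2 transcript starts further upstream, at base -18 of this numbering, so the proximal match lies inside its first exon there. The start of the other Hey2 transcript in that annotation was not found in the window. Both extended to the 8 letters CGTGGGAA. Of the 32851 promoter windows in the table, searched on both strands, 6.38% held GTGGGAA at least once and 0.256% held it 2 or more times, while 0.734% held CGTGGGAA. Promoter windows were given for 7 of the 10 members. The windows of Notch1, Notch2, Notch3, Jag1, Jag2 and Dll4 held neither GTGGGAA nor the shorter TGGGAA, which 25.6% of all windows held. Hes1, Hey1 and Heyl had no window in the table. These letters are a description of the reference sequence, and no binding was measured in the ovaries.

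Hes1, the Hes family repressor most widely used as a Notch readout, had 21.3, 16.9 and 22.1 FPKM at PD14, 14.6, 15.8 and 16.3 FPKM at PD15, and 17.2, 17.0 and 15.5 FPKM at PD16. The PD15 libraries all lay below the PD14 libraries, whereas PD14 replicate 2 lay within the PD16 range. Its means were 20.1 ± 2.77, 15.6 ± 0.910 and 16.6 ± 0.980 FPKM (SD, n = 3 libraries each). The difference from PD14 was -0.34 at PD15 (95% interval -0.56 to -0.12, limma adjusted p = 0.151) and -0.26 at PD16 (95% interval -0.47 to -0.04, limma adjusted p = 0.155), on the log2(FPKM + 1) scale. Neither passed the test. Without PD14 replicate 2, the lowest Hes1 library of that day, the PD16 difference was -0.37 and passed with a limma adjusted p of 0.0436. The exact permutation test over the 280 groupings gave p = 0.0607.

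Heyl, a Hey family repressor known from vascular smooth muscle, was the most abundant member on average over the 9 libraries, although Hes1 was higher in PD14 replicates 1 and 3. Its level was 19.3, 23.2 and 20.4 FPKM at PD14, 21.7, 22.2 and 19.7 FPKM at PD15, and 24.2, 23.8 and 23.7 FPKM at PD16. The PD16 libraries lay above all libraries of the other days and close to each other, with an SD of 0.231 FPKM. The difference between PD16 and PD14 was 0.18 (95% interval 0.02 to 0.35, limma adjusted p = 0.175) and that between PD16 and PD15 0.17 (limma adjusted p = 0.341) on the log2(FPKM + 1) scale, and neither passed the test.

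Hey1, which encodes the third Hey repressor, lay lower, at 5.69, 4.89 and 5.20 FPKM at PD14, 4.49, 4.90 and 5.68 FPKM at PD15, and 4.26, 4.83 and 4.11 FPKM at PD16. Its PD16 libraries lay just below the PD14 libraries, and the PD15 libraries spanned both. The difference between PD16 and PD14 was -0.21 (95% interval -0.42 to -0.01, limma adjusted p = 0.194) on the log2(FPKM + 1) scale. Only 330 to 532 fragments per library stood behind these values, against 1198 to 2410 for Hey2.

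**Figure D2:**
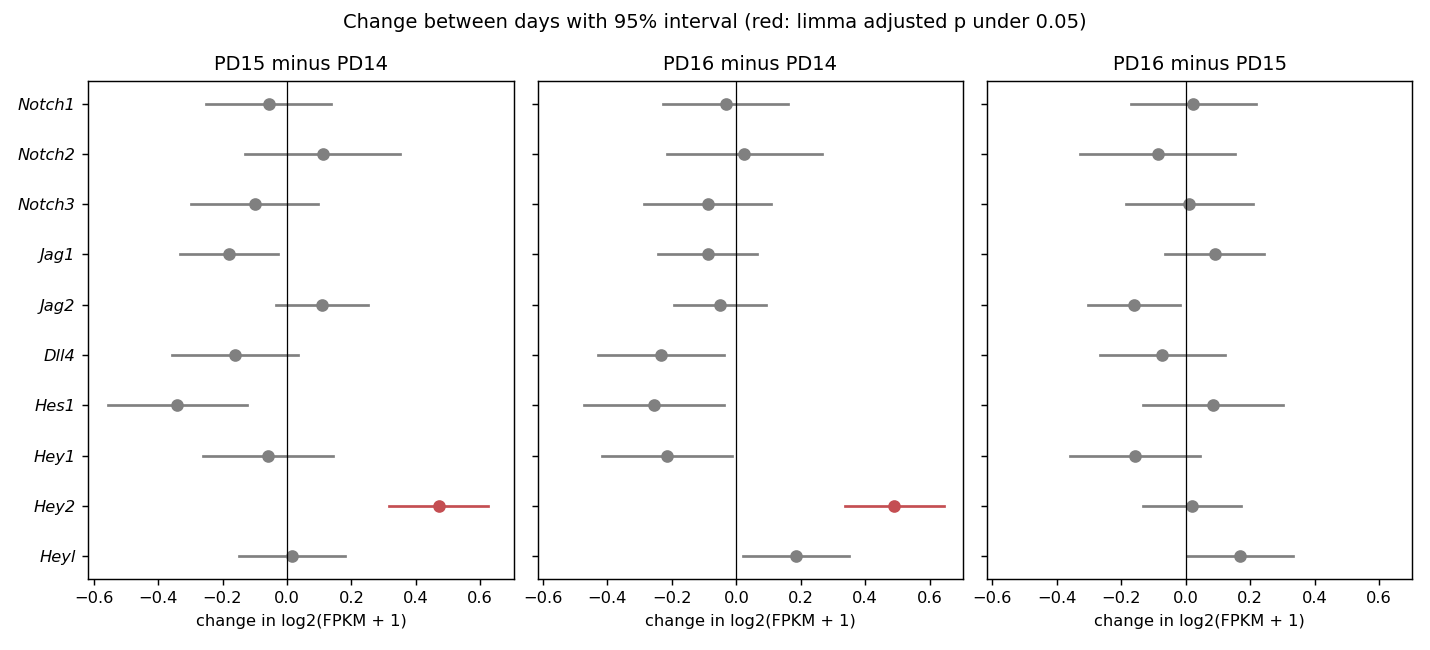
Difference between days for each member in log2(FPKM + 1) (horizontal axes), with the limma estimate as a point and its 95% interval as a line, for PD15 minus PD14, PD16 minus PD14 and PD16 minus PD15, in red where the adjusted p was under 0.05. Hey2 is the member in red, at 0.47 and 0.49 against PD14, and its interval for PD16 minus PD15 spans 0.

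Hey2 and Hes1 were also set against each other within the Hes and Hey genes, grouped by name, although Hes1 itself passed no comparison. FPKM is scaled by exon length, which is why levels of different genes were set side by side. The annotation behind those lengths is not given in the sources used here. Which of the genes is higher, the shares and the order of levels all depend on those lengths. The ratio of Hey2 to Hes1 was 0.624, 0.693 and 0.582 in the PD14 libraries, 1.28, 1.05 and 1.12 in the PD15 libraries, and 1.06, 1.00 and 1.23 in the PD16 libraries. Thus Hes1 exceeded Hey2 in each PD14 library and Hey2 was at or above Hes1 in each later library. Of the summed FPKM of Hes1, Hes2, Hes3, Hes5, Hes6, Hes7, Hey1, Hey2 and Heyl, Hey2 took 17.1% ± 0.900 at PD14, 24.3% ± 1.40 at PD15 and 23.8% ± 1.64 at PD16 (SD, n = 3, exact permutation p = 0.0250, without adjustment). Hes6, which is not a member, took 19.4% ± 1.40, 18.4% ± 0.341 and 17.0% ± 0.862 (exact permutation p = 0.0464, without adjustment). The level of Hes6 passed no comparison, and whether Hes6 answers to Notch here was not tested. Hes1 took 27.2% ± 2.89, 21.2% ± 1.13 and 21.7% ± 0.885 (SD, n = 3, exact permutation p = 0.0179, without adjustment). The sum contains Hey2, so a rise of Hey2 lowers the Hes1 share by itself, and this share cannot show a fall of Hes1. The level of Hes1 alone gave an exact permutation p of 0.0607. Nrarp, another Notch target gene, which encodes an inhibitor of the pathway, had 1.03 to 1.14 FPKM at PD14, 0.732 to 0.849 at PD15 and 0.602 to 1.11 at PD16, with its PD15 libraries below its PD14 libraries, and passed no comparison (limma adjusted p = 0.453 at PD15). The ratio of Hey2 to Hey1 was 2.34 to 2.47 at PD14 and 3.22 to 4.64 on the later days.

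**Figure D3:**
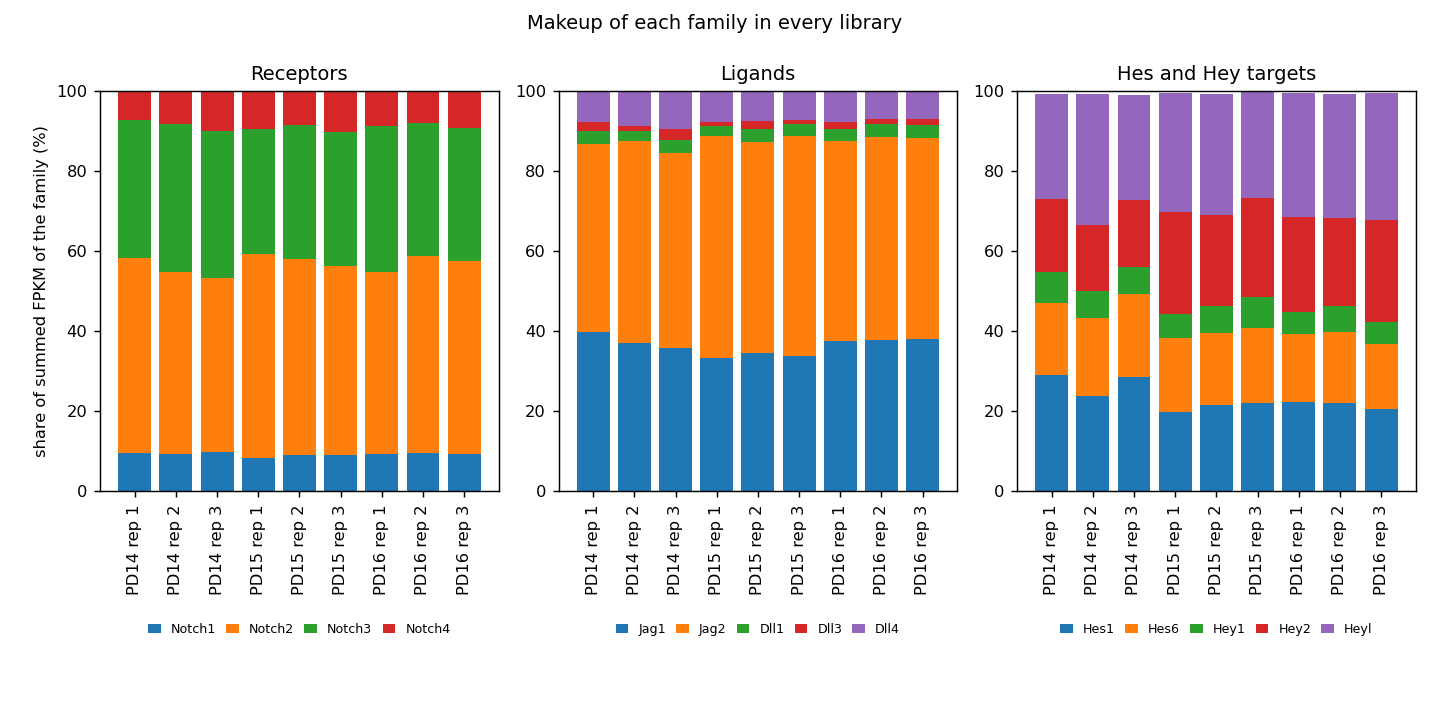
Share of each gene in the summed FPKM of its family (vertical axes, in %) in the 9 libraries, for the Notch receptors, the Jagged and Delta-like ligands (without Dlk1 and Dlk2) and the Hes and Hey genes, where genes whose share stayed under 1% in all libraries are left out of the bars. The Hey2 segment widens from 17.1% at PD14 to 24.3% at PD15, and the Jag2 segment is widest at PD15 with 54.4%.

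Among the ligands, Jag2 was the most abundant, and neither Jag2 nor Jag1 passed the test in any comparison. Jag1 and Jag2 encode the Jagged ligands, of which Jag1 is known from oocytes and from vessels. Jag2 had 13.3, 15.2 and 13.7 FPKM at PD14, 15.5, 15.6 and 14.6 FPKM at PD15, and 13.2, 13.1 and 14.3 FPKM at PD16. Its PD16 libraries lay below its PD15 libraries, with a difference of -0.16 (95% interval -0.30 to -0.02, limma adjusted p = 0.288) on the log2(FPKM + 1) scale, and PD14 overlapped both. The difference between PD15 and PD14 was 0.11 (limma adjusted p = 0.462).

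Jag1 had 11.3, 11.2 and 10.1 FPKM at PD14, 9.32, 10.2 and 9.00 FPKM at PD15, and 9.93, 9.81 and 10.8 FPKM at PD16. All days overlapped with each other, and PD15 differed from PD14 by -0.18 (95% interval -0.33 to -0.03, limma adjusted p = 0.264) on the log2(FPKM + 1) scale. The ratio of Jag2 to Jag1 was 1.18 to 1.36 at PD14, 1.53 to 1.66 at PD15 and 1.32 to 1.34 at PD16. It was higher in each PD15 library than in any library of the other days. Of the summed FPKM of Jag1, Jag2, Dll1, Dll3 and Dll4, Jag2 took 48.6% ± 1.75, 54.4% ± 1.42 and 50.4% ± 0.368 at PD14, PD15 and PD16 (SD, n = 3, exact permutation p = 0.0107), and Jag1 took 37.6% ± 2.04, 33.9% ± 0.588 and 37.8% ± 0.260 (exact permutation p = 0.0321). Both p-values are without adjustment, and these shares are parts of the same sum.

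Dll4, the Delta-like ligand of sprouting endothelium, was the rarest ligand among the members. Its level was 2.16, 2.60 and 2.65 FPKM at PD14, 2.16, 2.23 and 1.91 FPKM at PD15, and 2.05, 1.82 and 1.97 FPKM at PD16. The PD16 libraries lay below the PD14 libraries, and the nearest pair, PD14 replicate 1 and PD16 replicate 1, was close. The difference between PD16 and PD14 was -0.23 (95% interval -0.43 to -0.04, limma adjusted p = 0.149) on the log2(FPKM + 1) scale and did not pass the test. Dll4 rested on 159 to 241 fragments per library, the fewest of the members. Of the other ligands, Dll1 had 0.708 to 0.966 FPKM and Dll3 0.262 to 0.792 FPKM, both under the limit for testing. The noncanonical ligand gene Dlk2 had 0.348 to 2.15 FPKM, above Dll4 in PD16 replicates 1 and 2, and passed no comparison. Dlk1, another noncanonical ligand gene, was listed at 0 in all 9 libraries.

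The receptors showed no difference between days that exceeded the spread of the replicates. Notch2, the receptor known as the main receptor of granulosa cells, had 9.61, 10.4 and 8.12 FPKM at PD14, 10.7, 10.8 and 9.17 FPKM at PD15, and 8.34, 9.83 and 10.5 FPKM at PD16. Its differences from PD14 were 0.11 (95% interval -0.13 to 0.35, limma adjusted p = 0.673) at PD15 and 0.02 (95% interval -0.22 to 0.27, limma adjusted p = 0.915) at PD16, on the log2(FPKM + 1) scale. The PD14 libraries alone spanned 8.12 to 10.4 FPKM, beside 8.12 to 10.8 FPKM over all 9 libraries.

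Notch3, a receptor known from mural cells, had 6.83, 8.54 and 6.83 FPKM at PD14, 6.57, 7.36 and 6.49 FPKM at PD15, and 6.70, 6.64 and 7.26 FPKM at PD16. Which cells of the ovary held the Notch3 transcript was not tested. PD14 replicate 2 was the highest library and the others lay between 6.49 and 7.36 FPKM. The differences from PD14 were -0.10 (95% interval -0.30 to 0.10, limma adjusted p = 0.634) and -0.09 (95% interval -0.29 to 0.11, limma adjusted p = 0.583) at PD15 and PD16, on the log2(FPKM + 1) scale.

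Notch1, a receptor of endothelial and many other cells, lay at 1.88, 2.17 and 1.83 FPKM at PD14, 1.78, 1.97 and 1.79 FPKM at PD15, and 1.71, 1.92 and 2.06 FPKM at PD16. The differences from PD14 were -0.06 (95% interval -0.25 to 0.14, limma adjusted p = 0.807) and -0.03 (95% interval -0.23 to 0.16, limma adjusted p = 0.858) on the log2(FPKM + 1) scale. Genes annotated on the opposite strand overlap 7.50% of the Notch1 exon length (0610009E02Rik), 6.03% for Notch3 (Gm17276) and 5.56% for Dll4 (Gm14207). Those genes averaged 0.469, 0.0361 and 0.280 FPKM, and whether reads were counted by strand is not given in the sources used here.

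Notch2 and Notch3 made up most of the receptor transcripts. Notch2 took 45.8% ± 2.62, 49.0% ± 1.86 and 47.6% ± 1.88 of the summed receptor FPKM at PD14, PD15 and PD16, Notch3 took 36.1% ± 1.30, 32.8% ± 1.26 and 34.3% ± 1.94, and Notch1 took 9.59% ± 0.208, 8.89% ± 0.380 and 9.44% ± 0.141 (SD, n = 3, exact permutation p = 0.286, 0.0821 and 0.0143). The Notch1 share was lower in each PD15 library than in any library of the other days, within a range of 8.47% to 9.82%. Notch4, a receptor known from endothelium and the remaining member of the family, lay at 1.42 to 2.03 FPKM. In all, the shares of 18 receptors, ligands and Hes or Hey genes were tested. Of these, 6 had an exact permutation p under 0.05 without adjustment, namely 5 shares of members and that of Hes6. Shares within a family sum to 100%, so these tests are not independent.

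Averaged over the 9 libraries, the members ranked Heyl (22.0 FPKM), Hes1 (17.4), Hey2 (16.2), Jag2 (14.3), Jag1 (10.2), Notch2 (9.72), Notch3 (7.02), Hey1 (4.89), Dll4 (2.17) and Notch1 (1.90). Neighbours in this order overlapped in their range over the libraries, except for the steps from Jag2 to Jag1, from Notch3 to Hey1 and from Hey1 to Dll4. Hes1 stood above Hey2 in the PD14 libraries only, and Hey2 was at or above Hes1 in the 6 later ones. Notch2 stood above Jag1 in the 3 PD15 libraries and in PD16 replicate 2, and below it in the other 5. The summed level of the members was 104 to 107 FPKM at PD14, 103 to 108 at PD15 and 106 to 109 at PD16.

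The separation of the libraries was also counted over the members. The libraries of PD15 and PD14 did not overlap for 2 of 10 members (Hey2 higher, Hes1 lower), against 20.6% of all genes tested (10.4% higher, 10.2% lower). At PD16 the libraries were separate from PD14 for 4 of 10 (Hey2 and Heyl higher, Dll4 and Hey1 lower), against 28.5% of all genes (15% higher, 13.5% lower), and from PD15 for 2 of 10 (Heyl higher, Jag2 lower), against 19.6% (9.85% higher, 9.73% lower). The median difference of the members was -0.06 at PD15 and -0.07 at PD16 against PD14 on the log2(FPKM + 1) scale, beside medians of 0.0065 and 0.0093 over all genes. The 2 comparisons with PD14 share the PD14 libraries.

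The rest of the pathway was read from 9 lists of 70 genes, the members included, of which 62 were high enough to be tested. Apart from the members, 52 of 60 genes were tested. At PD15, 0 of these 52 passed limma's adjusted test against PD14 and 4 had an unadjusted p under 0.05, where 0.678% and 14.7% of all genes did. At PD16, 2 of 52 rose against PD14 and none fell, where 2.36% of all genes rose and 4.25% passed in either direction, and 8 had an unadjusted p under 0.05, where 22.8% of all genes did. Between PD15 and PD16, 0 of 52 passed limma's adjusted test and 7 had an unadjusted p under 0.05, where 0.729% and 14.1% of all genes did. Across the 62 genes, 31 lay higher and 31 lower in each comparison, with medians of 0.0015, -0.01 and 0.00014 on the log2(FPKM + 1) scale for PD15 and PD16 against PD14 and for PD16 against PD15.

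Adam17, which encodes a protease that can make the first cut of Notch receptors and also sheds other membrane proteins, was at 19.2, 19.5 and 17.3 FPKM at PD14, 20.7, 22.6 and 22.1 FPKM at PD15, and 25.1, 22.0 and 23.5 FPKM at PD16. Both later days lay above PD14 in every library. It rose by 0.32 (SE 0.0685, limma adjusted p = 0.0363) at PD16 on the log2(FPKM + 1) scale. The call was lost in 12 of 20 alternatives, with limma adjusted p up to 0.120. Among these were the fits without any single PD14 or PD16 library or PD15 replicate 2, and without a filter on low values. The call was also lost with FPKM scaled to a common sum or quantile normalized, but not with median-ratio size factors. Adam10, the protease known as the main one for ligand-induced cleavage, averaged 49.8, 52.1 and 53.3 FPKM on the 3 days (limma adjusted p = 0.431 at PD16). Psenen, a subunit of gamma-secretase, averaged 47.4, 45.6 and 42.7 FPKM (limma adjusted p = 0.444 at PD16).

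Tle1 encodes a Groucho corepressor that Hes proteins recruit. Its level was 7.69, 9.37 and 8.80 FPKM at PD14, 8.64, 10.02 and 8.46 FPKM at PD15, and 12.2, 11.3 and 13.5 FPKM at PD16. The PD16 libraries lay above all 6 earlier ones. The transcript rose by 0.47 (SE 0.0927, limma adjusted p = 0.0293) between PD14 and PD16 on the log2(FPKM + 1) scale, and the call was lost in 8 of 20 alternatives, among them without PD14 replicate 1, PD14 replicate 3, PD16 replicate 1 or PD16 replicate 3 and without a filter on low values, with limma adjusted p up to 0.0916. Of the other corepressor genes, Ctbp1 averaged 51.3, 50.6 and 52.2 FPKM and Hdac2 40.1, 43.8 and 46.0 FPKM, and neither passed the test.

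The remaining steps of the pathway held no gene that passed. Mib1 and Mib2, ubiquitin ligases that drive ligand endocytosis, averaged 15.7 and 16.3 FPKM over the libraries. Poglut1 and Rfng, which add or extend sugars on the receptors, averaged 13.9 and 9.52 FPKM. Dtx3 and Dtx4, of the Deltex family of receptor regulators, averaged 34.5 and 24.0 FPKM at PD14 and 30.4 and 19.9 FPKM at PD16, with limma adjusted p of 0.379 and 0.136. Snw1 and Kat2a, coactivators of the nuclear complex, averaged 32.3 and 29.3 FPKM, and Rbpj itself had 3.77 to 4.29 FPKM in the 9 libraries (limma adjusted p = 0.491 at PD15 and 0.464 at PD16 against PD14).

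**Figure D4:**
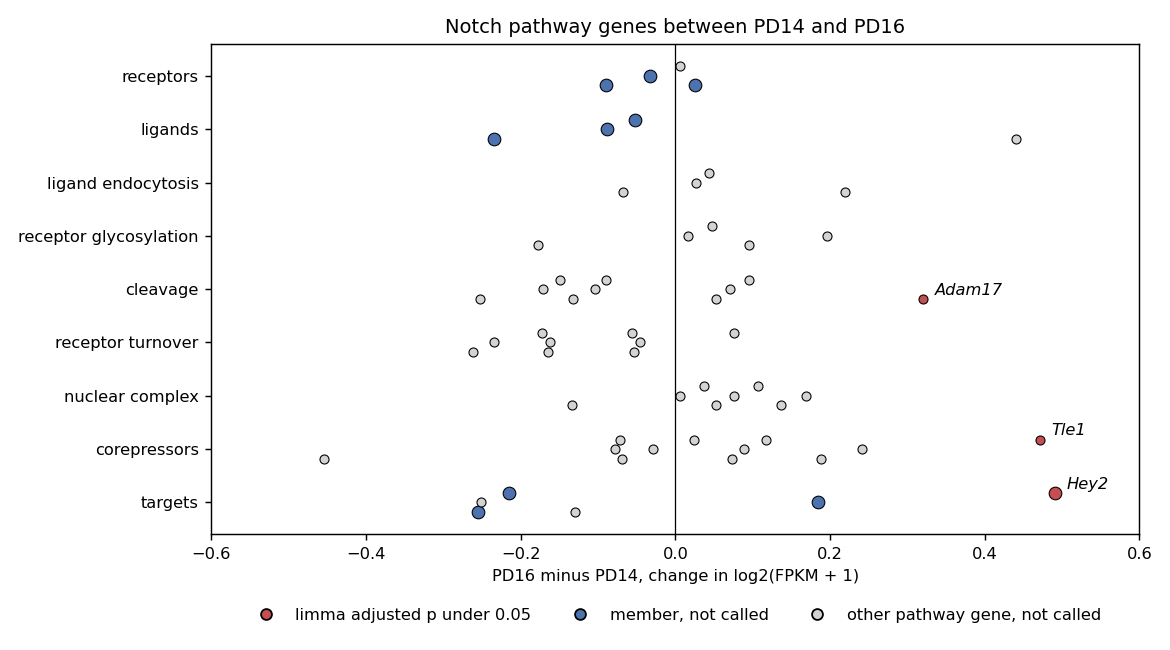
Difference between PD16 and PD14 in log2(FPKM + 1) (horizontal axis) for the 62 tested genes of the 9 pathway lists (rows), with members as larger points and genes with a limma adjusted p under 0.05 in red. Hey2 (0.49), Tle1 (0.47) and Adam17 (0.32) are the 3 red points, and the others lie on both sides of 0.

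Markers of the cell types in the ovary were set beside Hey2. The 17 endothelial markers summed to 191 to 210 FPKM at PD14, 196 to 203 at PD15 and 188 to 194 at PD16. Of these, 3 lay higher and 14 lower at PD15, and 5 higher and 12 lower at PD16, with 1 called on each day, where 0.678% and 4.25% of all genes were called. Sox18, an endothelial transcription factor, rose by 0.47 at PD15 (35.4, 49.5 and 42.5 FPKM on the 3 days, limma adjusted p = 0.0356), and Tie1, an endothelial receptor, fell by 0.25 at PD16 (9.87, 8.17 and 8.12 FPKM, limma adjusted p = 0.0458), while Pecam1 averaged 11.9, 10.8 and 10.7 FPKM and did not pass. Both calls depended on single libraries: Sox18 passed only without PD15 replicate 3 or PD16 replicate 3 and Tie1 in no case when each library was left out in turn.

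The 12 mural markers summed to 350 to 389, 326 to 411 and 371 to 471 FPKM on the 3 days. Of these 12 markers, 4 lay higher and 8 lower at PD15 than at PD14. At PD16, 7 lay higher and 5 lower than at PD14, and 10 higher and 2 lower than at PD15. By limma's adjusted test, 1 rose and 1 fell at PD16 against PD14, where 2.36% of all genes rose and 1.89% fell. None passed at PD15 against PD14 or at PD16 against PD15, where 0.678% and 0.729% of all genes did. Against PD14, Rgs5, a pericyte marker, fell by 0.62 at PD16 (21.0, 13.1 and 13.3 FPKM, limma adjusted p = 0.0294) and Cnn1, a smooth muscle gene, rose by 0.61 (7.65, 9.55 and 12.2 FPKM, limma adjusted p = 0.0348) on the log2(FPKM + 1) scale. Both calls were lost without any single PD14 or PD16 library. Endothelial and mural markers were above 0 on every day.

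The 13 granulosa cell markers summed to 3336 to 4062 FPKM at PD14, 3165 to 3551 at PD15 and 3296 to 3877 at PD16. Amh, the anti-Müllerian hormone gene of granulosa cells in growing follicles, had 186, 175 and 168 FPKM at PD14, 261, 243 and 222 FPKM at PD15, and 256, 235 and 244 FPKM at PD16. It rose by 0.47 at PD16 (limma adjusted p = 0.0223), a call lost without PD14 replicate 1, PD14 replicate 3 or PD16 replicate 1, and differed by 0.45 at PD15 (limma adjusted p = 0.0522) on the log2(FPKM + 1) scale. Of the 13 markers, 3 lay higher and 10 lower at PD15, and 0 passed limma's adjusted test, where 0.678% of all genes did. An unadjusted p under 0.05 was found for 5 of 13 at PD15 and 8 of 13 at PD16 against PD14. Between PD15 and PD16 it was found for 6 of 13. The shares of all genes were 14.7%, 22.8% and 14.1%. At PD16, 5 lay higher and 8 lower against PD14, and 3 passed, Amh higher and the next 2 lower, where 2.36% of all genes rose and 1.89% fell. Cyp19a1, the aromatase gene, averaged 5.11, 2.94 and 2.37 FPKM on the 3 days and fell by 0.84 (limma adjusted p = 0.0316), a call lost without PD14 replicate 1 or 3 or any PD16 library. By qRT-PCR of ovaries, the study reports the opposite direction, with Cyp19a1 increased at PD15 and PD16. The reason for this difference was not tested. Kitl, the Kit ligand gene, averaged 55.5, 51.5 and 38.9 FPKM and fell by 0.50 (limma adjusted p = 0.0494), a call lost with each library left out except PD15 replicate 3.

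Of the 12 oocyte markers, 8 lay higher at PD15 than at PD14, 2 higher at PD16 than at PD14, and none higher at PD16 than at PD15. By limma's adjusted test, 1 of 12 rose against PD14 at PD15 and 1 at PD16, where 0.336% and 2.36% of all genes rose. From PD15 to PD16, 2 of 12 fell, where 0.297% of all genes fell. An unadjusted p under 0.05 was found for 3 and 8 of 12 at PD15 and PD16 against PD14. Between PD15 and PD16 it was found for 8 of 12. Of all genes 14.7%, 22.8% and 14.1% had such a p. The median difference at PD16 against PD14 was -0.25 on the log2(FPKM + 1) scale. Bmp15, an oocyte growth factor gene, had 48.2, 47.6 and 53.1 FPKM at PD14, 61.0, 63.8 and 72.05 FPKM at PD15, and 69.2, 66.2 and 60.8 FPKM at PD16. All 6 later libraries of Bmp15 lay above its PD14 libraries. It rose by 0.39 at PD16 (limma adjusted p = 0.0331) and differed by 0.39 at PD15 (limma adjusted p = 0.0745) against PD14 on the log2(FPKM + 1) scale. Nlrp5, which encodes a maternal factor stored in the oocyte, averaged 90.8, 153 and 92.5 FPKM on the 3 days, rose by 0.76 at PD15 (limma adjusted p = 0.0377) and fell by 0.72 from PD15 to PD16 (limma adjusted p = 0.0439). The zona pellucida gene Zp2 averaged 227, 268 and 176 FPKM and fell by 0.61 from PD15 to PD16 (limma adjusted p = 0.0427). Each of these calls was lost in 8 to 10 of 20 alternatives. Without single libraries, Bmp15 missed the threshold except without PD15 replicate 1, PD15 replicate 3 or PD16 replicate 3, Nlrp5 at PD15 except without PD14 replicate 1, PD16 replicate 1 or PD16 replicate 3, Nlrp5 from PD15 to PD16 except without PD14 replicate 1 or 2, and Zp2 except without PD14 replicate 2.

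Of the 6 tested genes of surface epithelium and oviduct, 2 lay higher and 4 lower at PD16 than at PD14. On the log2(FPKM + 1) scale 3 of the 6, all keratin genes, fell and none rose. Of all genes 1.89% fell and 4.25% passed in either direction. Krt8 fell by 0.48 (limma adjusted p = 0.0222), Krt18 by 0.45 (limma adjusted p = 0.0121) and Krt19 by 0.42 (limma adjusted p = 0.0335). The Krt18 call was lost without PD16 replicate 1, that of Krt8 without PD14 replicate 2, PD14 replicate 3 or PD16 replicate 1, and that of Krt19 without any single PD14 or PD16 library. The hemoglobin gene Hba-a1 averaged 87.4, 33.7 and 62.1 FPKM and fell by 1.35 at PD15 (limma adjusted p = 0.0381), a call lost without any single PD14 or PD15 library or PD16 replicate 1.

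The 8 theca and interstitial markers summed to 1623 to 2245 FPKM at PD14, 1196 to 1770 at PD15 and 1229 to 1637 at PD16, and the 8 stroma markers to 619 to 709, 545 to 620 and 625 to 640 FPKM. In each list 6 of 8 lay lower at PD15 than at PD14, and at PD16 4 of the theca and 7 of the stroma markers did. None of these 16 genes passed limma's adjusted test in any comparison. In each list 2 of 8 had an unadjusted p under 0.05 at PD15 against PD14, where 14.7% of all genes did. At PD16 against PD14 these were 2 of the theca and 0 of the stroma markers, where 22.8% of all genes had such a p. Between PD15 and PD16 it was 1 of each list, where 14.1% of all genes had such a p. The part of all these cell types in the Hey2 difference was not tested.

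Over the 9 libraries and the genes tested, the genes whose log2(FPKM + 1) correlated most with Hey2 were Perp (Pearson r = 0.969) and 2610020C07Rik (r = 0.965). For Hes1 it was Myl12b (r = 0.975), followed by a transcript without a symbol, for Heyl Nova1 (0.964) and Camta1 (0.950), and for Hey1 Rbakdn (0.954) and Ebpl (0.943). The ligands were closest to Gm12359 (0.942 with Jag1), Dnajc27 (0.946 with Jag2) and 1810043G02Rik (0.957 with Dll4), and the receptors to Cspp1 (0.967 with Notch2) and Cyp4f17 (0.929 with Notch3). For Notch1 it was a transcript without a symbol (0.950), followed by Gm17622 (0.944). No member was among the 2 closest genes of another member. These correlations are descriptions over 9 libraries that share their days and depth, and each gene was picked as the highest of all genes tested.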

How the data were processed

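Ovaries at PD14, PD15 and PD16 were sequenced with 3 libraries each (TRIzol RNA, NEBNext Ultra kit, Illumina HiSeq). The authors deposited FPKM, 1 table for each library. The submitters' processing notes name HISAT2 2.0.5 and mm10. The counting tool and annotation are not given in the sources used here. Depth was derived from the FPKM steps and GENCODE M21 exon lengths, where 95.6% to 96.3% of low values were whole fragments within 0.02. The labels do not say whether the 3 libraries of a day came from separate animals, which the study describes as independent ovaries, so p-values measure the spread between these libraries. No 2 libraries held identical values.

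FPKM was used as deposited. Genes with a mean above 1 FPKM on at least 1 day (15495) were fitted as log2(FPKM + 1) with limma 3.58.1 in R 4.3.3, with an intensity trend, all 9 libraries in 1 model and Benjamini-Hochberg adjustment over all genes tested. A difference passed at an adjusted p under 0.05. A log2(FPKM + 1) difference understates the change of low genes. Each member and each family share was also tested by an exact permutation test of the spread between days over 280 groupings. Pairs of days got no exact test, since 3 against 3 libraries cannot go below 0.10. The limma fit was tested on simulated data. Python 3.11.15, pandas 2.3.3, NumPy 2.4.6, SciPy 1.17.1 and Matplotlib 3.10.9 were used.

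Members and lists were chosen with earlier results of these data known. The genes named were the 10 members, pathway genes that passed and the 2 most abundant of each pathway list. Vascular markers that passed, the gene or genes most correlated with each member, and some of the first and most abundant markers were also named. Of those markers, values are not given for Acta2, Myh11, Cldn5, Inha, Gdf9, Hsd3b1, Ptch1, Pdgfra, Col1a2, Col3a1, Ptprc, Hbb-bs, Krt7 and Upk3b. These passed no comparison. Rbpj, Notch4, Dll1, Dll3, Dlk1, Dlk2, Nrarp, Cyp19a1, Kitl, Bmp15, Nlrp5, Zp2, Krt18 and Krt19 were named outside this rule, after their values were seen. The result of 1 gene is not reported here. Alternatives were other pseudocounts (0.1, 0.5), filters, scalings, limma settings, a block for the replicate number, the 2 days alone, and each library left out.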

Additional observations from a re-analysis of the deposited data

How the results depend on the processing

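The rise of Hey2 at PD16 was kept under all 11 other settings and with each of the 9 libraries left out. Its rise at PD15 kept its direction but missed the threshold without a filter on low values (limma adjusted p = 0.0652) and with only the 2 days in the model (0.0549), so that 0 members passed in each, and it did so with 5 libraries left out. Of the members' other-setting differences, 320 of 324 kept direction and side of the threshold, as did 247 of 270 with a library left out, where the members that passed numbered 0 to 1, 1 to 2, 0 and, over the 3 days, 0 to 2.

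Small differences changed sign. Heyl at PD15 against PD14 was -0.000510 when FPKM was scaled to a common sum, and Notch3 at PD16 against PD15 was -0.0229 with array weights. With single libraries left out, the PD15 minus PD14 difference ran from -0.136 to 0.00644 for Hey1 and from -0.0405 to 0.0860 for Heyl, that of PD16 minus PD14 from -0.0733 to 0.0180 for Notch1, -0.0663 to 0.111 for Notch2, -0.137 to 0.00578 for Notch3 and -0.0882 to 0.00131 for Jag2, and that of PD16 minus PD15 from -0.0168 to 0.0716 for Notch1, -0.0241 to 0.0616 for Notch3 and -0.0264 to 0.0608 for Hey2.

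Counts over all genes moved more, and the cause was not tested. In the main analysis 105 genes passed at PD15 and 659 at PD16 against PD14, 113 between PD15 and PD16, and 469 over the 3 days. Without a filter these were 29, 172, 24 and 95. With array weights, 184, 237 and 878 passed at PD15 against PD14, between PD15 and PD16 and over the 3 days. A mean above 5 FPKM left 63 at PD15 and left Notch1 and Dll4 untested. Scaling to a common sum left 397 at PD16 and 309 over the 3 days, and fits of 2 days alone left 46 at PD15 and 323 at PD16. Leaving out a library gave 3 to 92, 92 to 660, 14 to 125 and 100 to 354.

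Deviations of same-numbered libraries correlated at -0.214 to 0.159, and those of differently numbered libraries of different days at -0.196 to 0.211. The labels do not say whether the replicate numbers pair the libraries, and these values cannot settle it. With the replicate number as a block, 24, 227, 56 and 127 genes passed, and Hey2 passed on both days (0.0329 and 0.0159), as did Amh, Krt8, Krt18 and Krt19 at PD16 and Zp2 between PD15 and PD16. Adam17 (0.0826), Tle1 (0.0619), Sox18 (0.0602), Tie1 (0.0959), Rgs5 (0.0648), Cnn1 (0.0809), Cyp19a1 (0.0626), Kitl (0.103), Bmp15 (0.0749), Hba-a1 (0.0923) and Nlrp5 (0.0901 at PD15, 0.0888 between PD15 and PD16) missed the threshold with the block. The alternatives for these genes other than Hey2 were chosen after seeing the data.

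With 3 libraries a day, the 95% intervals of the members that did not pass reached as far as -0.56 on the log2(FPKM + 1) scale (Hes1 at PD15).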
